A study of Rattus norvegicus with 20 samples.

Results

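Cytochrome P450 genes encode heme enzymes that oxidise fatty acids, steroids, vitamin D and drugs. The genes described here were the 28 chosen by their measured level, a mean of at least 1 FPKM (fragments scaled to gene length and library depth) over the 6 DMSO/PEG vehicle libraries, out of 71 protein-coding genes with a rat P450 name in the tacrolimus table, which lists 32883 genes. Cyp51 was left out by the naming rule. All 28 were found by gene identifier in the cyclosporine A table of 32545 genes. They belong to 18 subfamilies and lie on 8 chromosomes, 7 each on chromosomes 1 and 5 and 6 on chromosome 7.

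RNA from whole kidneys of adult male Wistar rats, 10 to 12 weeks old and labelled wild type, was sequenced in 20 libraries. Cyclosporine A (4 libraries) was compared with its saline vehicle (4), and tacrolimus (6, dosed towards 3.5 ng/ml in plasma at trough) with its vehicle of 25% DMSO and 75% PEG (6). All agents were given for 28 days from osmotic minipumps under the skin. Both drugs are calcineurin inhibitors used against transplant rejection, with known side effects on the kidney. The labels do not say that every library is a different rat, so the p-values measure the spread between libraries. Between the drugs, effects of drug, vehicle and deposited table cannot be told apart.

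In P450 reactions an electron passes from a reductase to the heme, which then inserts oxygen into the substrate. In the kidney the best known substrate is arachidonic acid: Cyp4a and Cyp4f enzymes hydroxylate its end to 20-HETE, a lipid that acts on vessels and salt transport, and Cyp2c and Cyp2j enzymes turn it into epoxides. Other kidney P450s activate or degrade vitamin D. Much of this activity sits in the proximal tubule.

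Libraries held 30468799 to 34308987 gene fragments with saline or cyclosporine A and 31670202 to 39358485 with DMSO/PEG or tacrolimus. The mitochondrial share of them was 49.7% to 68.6% with saline and 80.2% to 90.8% with cyclosporine A, against 10.5% to 15.9% over the 12 libraries of the tacrolimus table. FPKM of the cyclosporine A table was therefore rescaled between libraries (rescaled FPKM), and the main counts are also given on FPKM as deposited, where nearly all genes are lower with the drug. Cyclosporine A replicate 4 stood apart, with the highest mitochondrial share and 1141 rescaled FPKM of the haemoglobin gene Hbb, against 66.8 to 184 with saline and 296, 121 and 402.9 in cyclosporine A replicates 1 to 3. The blood markers (4 genes) summed to 352 to 964 rescaled FPKM with saline and 559 to 5719 with cyclosporine A, with a median log2 fold change of 1.40, 2 of 4 higher at an unadjusted limma p under 0.05 and none called. Summed proximal tubule markers (12 genes) were at 1162 to 1551 rescaled FPKM with saline and 569 to 1239 with cyclosporine A, ranges that overlapped. Of these 12 genes limma called 1, the glucose transporter gene Slc5a2, which was higher with the drug, 2 were higher and 4 lower at an unadjusted p under 0.05, and the median log2 fold change was −0.26. Of 12 marker lists 2, thick ascending limb and distal convoluted tubule, were lower without overlap, and 9 were on FPKM as deposited, proximal tubule among them. Of the 3 distal convoluted tubule genes only Calb1 was called or reached an unadjusted limma p under 0.05, and their median log2 fold change was −0.064 on rescaled FPKM. Of the 3 thick ascending limb genes limma called Umod, 2 were lower at an unadjusted p under 0.05, and the median was −0.95. In the tacrolimus table the same proximal tubule sum was 4322 to 4642 FPKM with vehicle and 4200 to 5133 with drug, and only the distal convoluted tubule list did not overlap, at 269.5 to 346 FPKM with vehicle and 44.7 to 73.1 with drug. Limma called all 3 of its genes (Slc12a3, Calb1 and Trpm6) lower, with a median log2 fold change of −1.24. The adipocyte markers (6 genes) summed to 39.2 to 117 FPKM with vehicle and 26.5 to 72.7 with tacrolimus. Their median log2 fold change was −0.86, 4 of 6 were lower at an unadjusted limma p under 0.05, and limma called Ucp1 (log2 fold change −3.33, adjusted p = 0.000844). The liver is the other large source of P450 RNA. The hepatocyte markers found (8 of 9) summed to 2.89 to 4.11 rescaled FPKM with saline, 0.831 to 7.61 with cyclosporine A, and 5.12 to 7.43 FPKM with DMSO/PEG and 5.29 to 8.62 with tacrolimus. Of these, Fga was highest, at up to 6.99, and Fgb reached 1.63 in a cyclosporine A library, whereas Alb did not exceed 0.362 and Tat was at 0 in all 8 libraries of the cyclosporine A table. The adrenal cortex markers found (5 of 6) summed to 0.664 to 1.58 and 0.691 to 2.33 rescaled FPKM in that table and to 5.86 to 8.07 and 5.50 to 7.02 FPKM in the tacrolimus table. Scarb1 was at 4.25 to 6.81 FPKM in the latter, above every value of the other 4 markers, Nr5a1 did not exceed 0.0365 in either, and Akr1b7 was at 0 in all 8 libraries of the cyclosporine A table.

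Promoter sequence is shown for 2 pairs of neighbouring genes, Cyp4a3 with Cyp4a2 and Cyp2d5 with Cyp2d3, whose ratio took separate ranges between libraries, and for the gene that rose with tacrolimus. Of the 28 genes, 23 had a promoter in the RefSeq table (build GRCr8), and Cyp1a1, Cyp24a1, Cyp4a1, Cyp4v3 and Cyp7b1 had none. Each sequence is the 250 bases before the annotated start, 5′ to 3′ on the gene's strand. For Cyp4a2 (chr5:134170909-134171158, minus strand) and Cyp4a3 (chr5:134352237-134352486, minus strand), capitals mark the bases with no identical partner in the other:
Cyp4a2: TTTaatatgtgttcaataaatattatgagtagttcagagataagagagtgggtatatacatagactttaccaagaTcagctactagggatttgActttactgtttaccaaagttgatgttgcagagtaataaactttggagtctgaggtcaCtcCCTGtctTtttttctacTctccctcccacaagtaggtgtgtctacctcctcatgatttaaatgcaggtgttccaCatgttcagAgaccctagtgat
Cyp4a3: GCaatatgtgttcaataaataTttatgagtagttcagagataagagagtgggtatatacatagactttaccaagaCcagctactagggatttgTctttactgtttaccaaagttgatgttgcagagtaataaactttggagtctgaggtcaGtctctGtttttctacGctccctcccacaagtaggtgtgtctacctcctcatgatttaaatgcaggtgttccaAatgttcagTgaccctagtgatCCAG
Of 245 aligned bases 236 (96.3%) were identical. For Cyp2d3 (chr7:115802143-115802392, minus strand), Cyp2d5 (chr7:115784488-115784737, minus strand) and Cyp2e1 (chr1:205269717-205269966, plus strand), capitals mark matches on either strand to AGGNCA repeated directly with 1 base between the copies, a site type bound by nuclear receptors such as HNF4, or to the TATA box letters TATAAA:
Cyp2d3: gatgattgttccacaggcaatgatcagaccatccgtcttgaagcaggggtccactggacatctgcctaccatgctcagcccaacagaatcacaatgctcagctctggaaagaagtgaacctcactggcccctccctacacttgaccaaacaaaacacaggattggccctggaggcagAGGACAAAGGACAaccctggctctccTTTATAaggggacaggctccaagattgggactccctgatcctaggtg
Cyp2d5: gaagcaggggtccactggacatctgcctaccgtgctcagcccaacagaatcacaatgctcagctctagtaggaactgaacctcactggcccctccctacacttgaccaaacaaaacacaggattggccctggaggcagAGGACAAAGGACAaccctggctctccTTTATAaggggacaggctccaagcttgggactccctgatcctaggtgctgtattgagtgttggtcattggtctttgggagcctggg
Cyp2e1: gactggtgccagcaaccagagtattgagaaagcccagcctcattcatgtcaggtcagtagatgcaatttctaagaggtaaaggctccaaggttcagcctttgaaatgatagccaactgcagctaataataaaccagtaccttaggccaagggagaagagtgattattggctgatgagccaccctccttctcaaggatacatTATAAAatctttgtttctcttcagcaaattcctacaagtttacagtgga
The repeat was found in 0.368% of 33469 promoter windows of this length and in 2 of the 23 windows of P450 genes, Cyp2d3 and Cyp2d5, whose windows were identical at 205 of 211 aligned bases (97.2%). TATAAA was in 12.9% of all windows and in 5 of the 23 (Cyp2c11, Cyp2c24, Cyp2d3, Cyp2d5 and Cyp2e1), and the HNF1 site, GTTAAT and ATTAAC with 1 base between them, was in none of the 23 and in 1 window of all. A match describes letters in this window.

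A few genes held most of the P450 RNA. Cyp4a2, a fatty acid hydroxylase (chromosome 5, 134196912 to 134207863, minus strand, build rn6), had a mean of 1593 ± 207 FPKM (SD, n = 6) with the DMSO/PEG vehicle. Cyp2c23, the main arachidonic acid epoxygenase of the rat kidney (chromosome 1, 263778516 to 263803150, minus strand), had 1085 ± 211 FPKM (SD, n = 6). The spreads of both overlap in part, the Cyp4a2 libraries running from 1284 to 1871 FPKM and those of Cyp2c23 from 749 to 1374. Together they made 68.3% of the summed FPKM of the 28 genes. Cyp4a3 (356 FPKM), Cyp4a8 (275), Cyp4f1 (135) and Cyp2e1 (134) followed, 12 genes lay from 10 to under 100 and 10 from 1 to under 10. These levels are per length, so they can be compared between genes within the table.

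Of the 43 P450 genes under the level, 14 were listed at 0 in the vehicle. Just inside were Cyp2j10 at 1.15, Cyp7b1 at 2.21 and Cyp39a1 at 2.52 FPKM, and just outside Cyp2f4 at 0.868, Cyp27b1 at 0.867 and Cyp1b1 at 0.842. The Cyp3a subfamily, which in liver clears both drugs, had 4 genes under the level, the highest of them Cyp3a62 at 0.178 FPKM with vehicle and 0.180 with tacrolimus, a group singled out after its values were seen. No member was under 1 with tacrolimus, and Cyp27b1 was the 1 gene left out by the vehicle level that passed it with the drug (2.04 FPKM).

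In the cyclosporine A table Cyp4a2 again led, at 1093 ± 372 rescaled FPKM (SD, n = 4) with saline, and made 63.4% of the sum. Cyp2c23 had the second highest mean, 135 ± 13.4, close to that of Cyp4a3, 129 ± 61.8 (SD, n = 4 each). Their spreads overlapped, and Cyp4a3 was the higher of the pair in saline replicates 3 and 4. Values of 10 of the 28 genes, among them Cyp4a2, Cyp4a3, Cyp2e1 and Cyp2d3, were whole fragments only with a shorter gene length than the one listed (1616 in place of 3339 bases for Cyp2d3), so levels were not compared between tables. The symbols of 3 members differ there: Cyp4a3, Cyp4f6 and Cyp2c24 are listed as Cyp4a2, LOC100912391 and Cyp2c13.

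**Figure D1:**
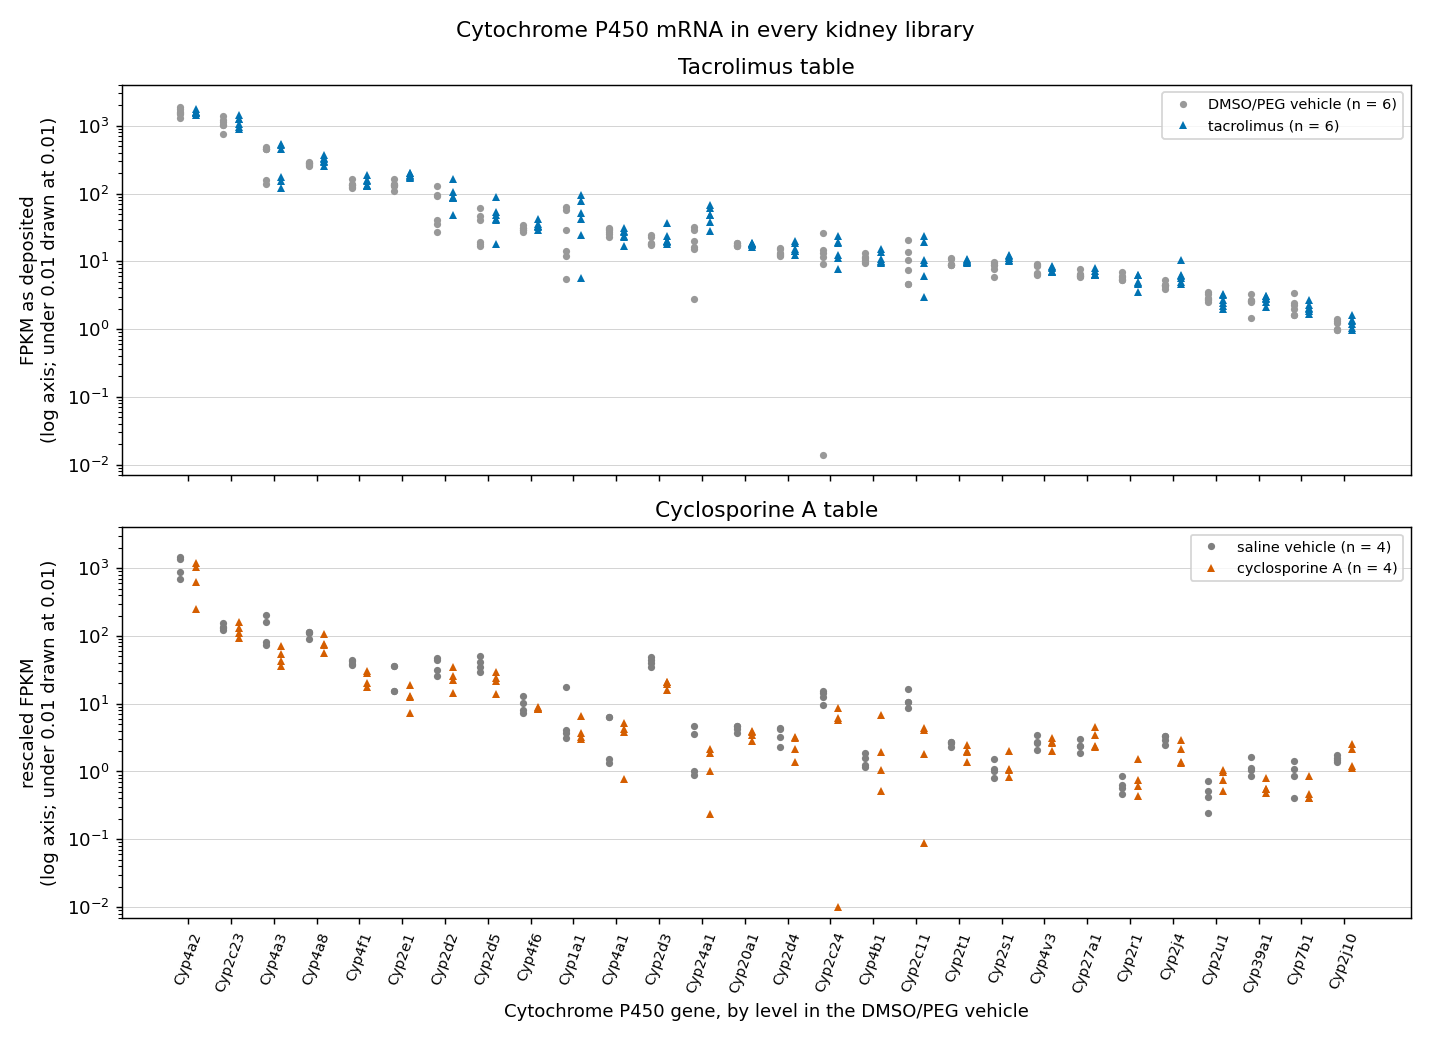
FPKM (log axis) of the 28 genes in each library, tacrolimus table above and cyclosporine A table below, grey circles for vehicle and coloured triangles for drug, values under 0.01 being drawn at 0.01. Cyp4a2 and Cyp2c23 have the highest vehicle means in both tables, and the lowest points are Cyp2c24 in single libraries. With saline the values of Cyp2c23 and Cyp4a3 overlap.

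Cyclosporine A. With cyclosporine A most P450 genes had lower values than with saline, but 1 of 28 passed the test on rescaled FPKM. That gene was Cyp2d3, a drug-oxidising enzyme, which fell in all 4 libraries. All 28 were tested, and limma at an adjusted p under 0.05 called 0.609% of all 13455 genes, 0.282% lower. The log2 fold change was below 0 for 22 of the 28, against 50.1% of all genes, and its median was −0.40, against −0.00048 over all genes. An unadjusted limma p under 0.05 was reached by 11 of 28, all lower, against 8.92% of all genes lower at that level. In whole-kidney RNA, fewer cells of a type and less RNA per cell cannot be told apart, and the part of the proximal tubule and blood marker levels in these values was not tested.

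The scale set how many were called. On FPKM as deposited, where mitochondrial fragments count in the total, limma called 26 of 28 lower, against 80.9% of all genes. All 28 log2 fold changes were below 0 on that scale, against 97.5% of all genes, and the median was −1.33 over the 28 genes and −0.89 over all genes.

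The Cyp2d enzymes oxidise many drugs and are relatives of human CYP2D6. Cyp2d3 (chromosome 7, 123625590 to 123638765, minus strand) was at 48.4, 39.6, 34.2 and 44.9 rescaled FPKM in saline replicates 1 to 4 and at 20.7, 20.6, 19.5 and 16.0 in cyclosporine A replicates 1 to 4. The groups did not overlap, and the drug libraries lay within a narrower range than the vehicle libraries. Its log2 fold change was −1.08 (SE 0.13, limma, adjusted p = 0.0196), resting on 346 to 897 fragments per drug library. The call was lost without saline replicate 4 (adjusted p = 0.0929, log2 fold change −1.04) and without the filter on low values (adjusted p = 0.0536), and it was kept without each of the other 7 libraries in turn, including cyclosporine A replicate 4 (−0.997, adjusted p = 0.0210). Cyp2d3 lies between Cyp2d5 and Cyp2d2 on the chromosome, and how fragments shared by such close copies were assigned is not given in the sources used here.

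Its neighbour Cyp2d5 was at 50.2, 34.9, 29.2 and 41.8 rescaled FPKM with saline and at 29.4, 21.8, 23.9 and 13.7 with cyclosporine A. The highest drug library reached the lowest vehicle library, and the log2 fold change of −0.81 (SE 0.23) did not pass the test (limma, adjusted p = 0.131). Cyp2d2 was at 47.2, 44.7, 25.6 and 31.4 with saline and at 22.4, 26.1, 34.6 and 14.6 with the drug, a log2 fold change of −0.61 (limma, adjusted p = 0.291). Cyp2d4 was the low member of the subfamily, at 2.27 to 4.42 and 1.36 to 3.22. Summed over the 4 genes, Cyp2d was at 150, 123, 91.3 and 121 rescaled FPKM with saline and at 74.7, 71.5, 81.3 and 45.7 with cyclosporine A. No drug library reached the lowest vehicle library in this sum.

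The Cyp4a enzymes, the fatty acid hydroxylases that make 20-HETE, are the most abundant subfamily. Cyp4a2 was at 1462, 1346, 682 and 880 rescaled FPKM with saline and at 631, 1204, 1028 and 253 with cyclosporine A. The groups overlapped widely, and its log2 fold change was −0.64 (SE 0.46, limma, adjusted p = 0.530). Without cyclosporine A replicate 4 it was −0.18 (limma, adjusted p = 0.817). Cyp4a3 was at 82.6, 72.9, 158 and 202 with saline and at 35.8, 53.5, 43.2 and 70.1 with the drug, without overlap. Its log2 fold change of −1.25 (SE 0.33) did not pass the test (limma, adjusted p = 0.112). Cyp4a8 was at 116, 114, 89.9 and 110 with saline and at 74.5, 107, 76.4 and 55.9 with the drug, 1 drug library lying inside the vehicle range (log2 fold change −0.48, limma adjusted p = 0.231). The Cyp4a sum was 1333 ± 334 with saline and 912 ± 439 with cyclosporine A (SD, n = 4 each), and the groups overlapped.

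Cyp4f enzymes hydroxylate leukotriene B4 and other fatty acids. Cyp4f1 (chromosome 7, 15179467 to 15190796, minus strand) was at 42.1, 37.8, 39.1 and 43.6 rescaled FPKM with saline and at 20.2, 28.0, 29.9 and 17.3 with cyclosporine A. The 4 saline libraries lay close together and above all drug libraries. The log2 fold change was −0.78 (SE 0.17, limma, adjusted p = 0.0726). Cyp4f6 overlapped between the groups, at 7.41 to 13.0 and 8.24 to 8.84. The sum of both was lower in every drug library, 26.2 to 38.1 against 45.9 to 56.6.

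Of the 3 Cyp2c genes none passed the test. Cyp2c23, the main kidney epoxygenase, was at 131, 122, 134 and 154 rescaled FPKM with saline and at 92.8, 162, 131 and 110 with the drug. Replicates 1 and 4 of the drug lay below the saline range, replicate 2 above it and replicate 3 inside it. Its log2 fold change was −0.15, with a 95% interval of −0.52 to 0.22 (limma, adjusted p = 0.713). Cyp2c11, the male-specific steroid hydroxylase of rat liver, was at 10.7, 16.3, 8.67 and 10.6 with saline and at 4.37, 4.08, 1.79 and 0.0877 with the drug. No drug library reached the vehicle range, and the log2 fold change was −2.02 (SE 0.45, limma, adjusted p = 0.0770). Without cyclosporine A replicate 4, where the gene had 2 fragments, it was −1.53 and passed (limma, adjusted p = 0.0364). Cyp2c24 was at 14.6, 15.5, 9.57 and 12.5 with saline and at 5.71, 6.12, 8.57 and 0 with the drug (log2 fold change −1.58, SE 0.60, limma adjusted p = 0.234). Without cyclosporine A replicate 4 the fold change was −0.85 (limma adjusted p = 0.0698). In replicate 4 it had 0 fragments, and 3 fragments would have been 0.113 rescaled FPKM, the level that a count of 0 allows.

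Cyp2e1, which oxidises ethanol and other small molecules, was at 15.3, 15.2, 35.8 and 36.1 rescaled FPKM with saline and at 13.2, 7.33, 12.6 and 18.7 with cyclosporine A. Saline replicates 3 and 4 stood above all other libraries, and the groups overlapped (log2 fold change −0.88, SE 0.34, limma adjusted p = 0.249). The epoxygenase Cyp2j4 was at 3.33, 2.49, 3.33 and 2.91 with saline and at 1.35, 1.36, 2.18 and 2.89 with the drug, only replicate 4 reaching the vehicle range (log2 fold change −0.48, limma adjusted p = 0.248). Cyp39a1, an oxysterol hydroxylase, did not overlap, at 0.857 to 1.65 against 0.476 to 0.798 (log2 fold change −0.43, limma adjusted p = 0.162). In all, 6 of 28 genes were lower without overlap (Cyp4a3, Cyp4f1, Cyp2d3, Cyp2c24, Cyp2c11 and Cyp39a1), against 6.11% of all genes, and none was higher without overlap, against 4.81%. On FPKM as deposited 21 of 28 were lower without overlap, against 67.9% of all genes.

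The 6 genes with a fold change above 0 on rescaled FPKM were Cyp27a1, Cyp2u1, Cyp4b1, Cyp2r1, Cyp2s1 and Cyp2j10, and none of them reached an unadjusted limma p under 0.05. Cyp27a1, a mitochondrial sterol 27-hydroxylase that also acts on vitamin D, was at 1.86 to 3.04 with saline and at 2.32 to 4.52 with the drug (log2 fold change 0.26). On FPKM as deposited all 6 were below 0, with −0.73 for Cyp27a1 and −0.23 for Cyp2u1. Cyp24a1, which starts the breakdown of vitamin D, was at 3.63, 4.64, 0.899 and 1.01 with saline and at 1.87, 1.00, 2.11 and 0.232 with the drug. The vehicle libraries were themselves split in pairs, and the log2 fold change of −0.54 (SE 0.41) did not pass the test (limma, adjusted p = 0.558).

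Tacrolimus. Cyp2e1 rose with tacrolimus and was the 1 gene of 28 that passed the test. The vitamin D 24-hydroxylase Cyp24a1 had the largest fold change of the 28 in the main fit, higher in most drug libraries, but did not pass. All 28 were tested, and limma called 0.303% of all 15493 genes and 0.0194% higher. The log2 fold change was below 0 for 6 of 28, against 50.2% of all genes, and its median was 0.11, against −0.00033 over all genes. At an unadjusted limma p under 0.05 there were 5 genes, all higher (Cyp4a8, Cyp2e1, Cyp24a1, Cyp2s1 and Cyp2j4), against 3.7% of all genes higher at that level. The vehicle values of this table chose the members, so these counts are a description, and the part of the lower adipocyte marker values in them was not tested.

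Cyp2e1 (chromosome 1, 213511874 to 213535542, plus strand) was at 137, 133, 127, 108, 163 and 134 FPKM in vehicle replicates 1 to 6 and at 180, 201, 175, 188, 170 and 199 in tacrolimus replicates 1 to 6. Every drug library lay above every vehicle library. The log2 fold change was 0.48 (SE 0.08, limma, adjusted p = 0.0288), resting on 9016 to 18495 fragments per library. The fold change ran from 0.42 to 0.54 when single libraries were left out, and the call was lost in 8 of those 12 fits. It was lost without tacrolimus replicates 1, 2, 4 and 6 (limma adjusted p = 0.0652, 0.0847, 0.0788 and 0.0678) and without vehicle replicates 1, 2, 3 and 6 (0.0644, 0.0779, 0.0713 and 0.0605), and also without the filter on low values (0.0517). Groups without overlap, higher with drug, were seen for 0.303% of all genes.

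The other gene of the 28 without overlap was Cyp2s1, at 5.94 to 9.85 FPKM with vehicle and 10.1 to 12.4 with tacrolimus. Its log2 fold change was 0.39 (SE 0.10, limma, adjusted p = 0.166).

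The vitamin D enzymes were measured as a pathway of activation (Cyp2r1 and Cyp27a1, then Cyp27b1) and breakdown (Cyp24a1). Cyp24a1 (chromosome 3, 168097485 to 168111920, minus strand) was at 20.02, 2.80, 28.7, 15.1, 31.8 and 16.2 FPKM with vehicle and at 47.6, 27.8, 60.3, 67.8, 37.5 and 48.0 with tacrolimus. Only tacrolimus replicate 2 lay inside the vehicle range, and vehicle replicate 2 lay far below the other vehicle libraries. The means were 19.1 ± 10.4 and 48.2 ± 14.6 (SD, n = 6 each), and the log2 fold change was 1.50 with a standard error of 0.44 and a 95% interval of 0.56 to 2.44 (limma, unadjusted p = 0.00429, adjusted p = 0.247). Without vehicle replicate 2 the fold change was 1.07 (limma, adjusted p = 0.144). Cyp27b1, which makes the active hormone and was just under the level for members, was at 1.19, 1.03, 0.389, 0.607, 1.27 and 0.718 with vehicle and at 0.665, 3.01, 3.09, 1.92, 1.05 and 2.50 with the drug (log2 fold change 0.65, limma adjusted p = 0.369). Of the drug libraries 4 lay above the vehicle range and 2 inside it. Cyp2r1, at 5.30 to 6.87 and 3.48 to 6.32, and Cyp27a1, at 5.84 to 7.79 and 6.30 to 7.98, overlapped between the groups.

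The most abundant genes had overlapping groups. Cyp4a2 was at 1284 to 1871 FPKM with vehicle and 1445 to 1779 with tacrolimus, with medians of 1591 and 1565. Cyp2c23 was at 749 to 1374 and 906 to 1423, with a log2 fold change of 0.09 and a 95% interval of −0.24 to 0.41 (limma, adjusted p = 0.937). Cyp4a8 was at 256 to 292 and 257 to 370 (log2 fold change 0.18, SE 0.08, limma adjusted p = 0.520). Cyp4f1 was at 120.5 to 162 and 129 to 185 (log2 fold change 0.13, limma adjusted p = 0.799). The sum over all 28 genes was 3923 ± 400 FPKM with vehicle and 4152 ± 334 with tacrolimus (SD, n = 6 each), and the groups overlapped. Of the 18 subfamily sums, those of Cyp2e and Cyp2s, 1 gene each, did not overlap.

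Cyp2j4 was at 3.95 to 5.24 FPKM with vehicle and 4.63 to 10.4 with tacrolimus, the highest value being replicate 6 (log2 fold change 0.38, SE 0.14, limma adjusted p = 0.436). Cyp1a1, the classic target of the aryl hydrocarbon receptor, was at 14.2, 56.2, 28.8, 63.3, 5.46 and 11.9 with vehicle and at 50.9, 24.3, 94.9, 5.69, 78.8 and 42.4 with the drug. It varied 17.4-fold over the 12 libraries, both groups having low and high libraries, and the log2 fold change of 0.73 had a standard error of 0.68 (limma, adjusted p = 0.855).

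**Figure D2:**
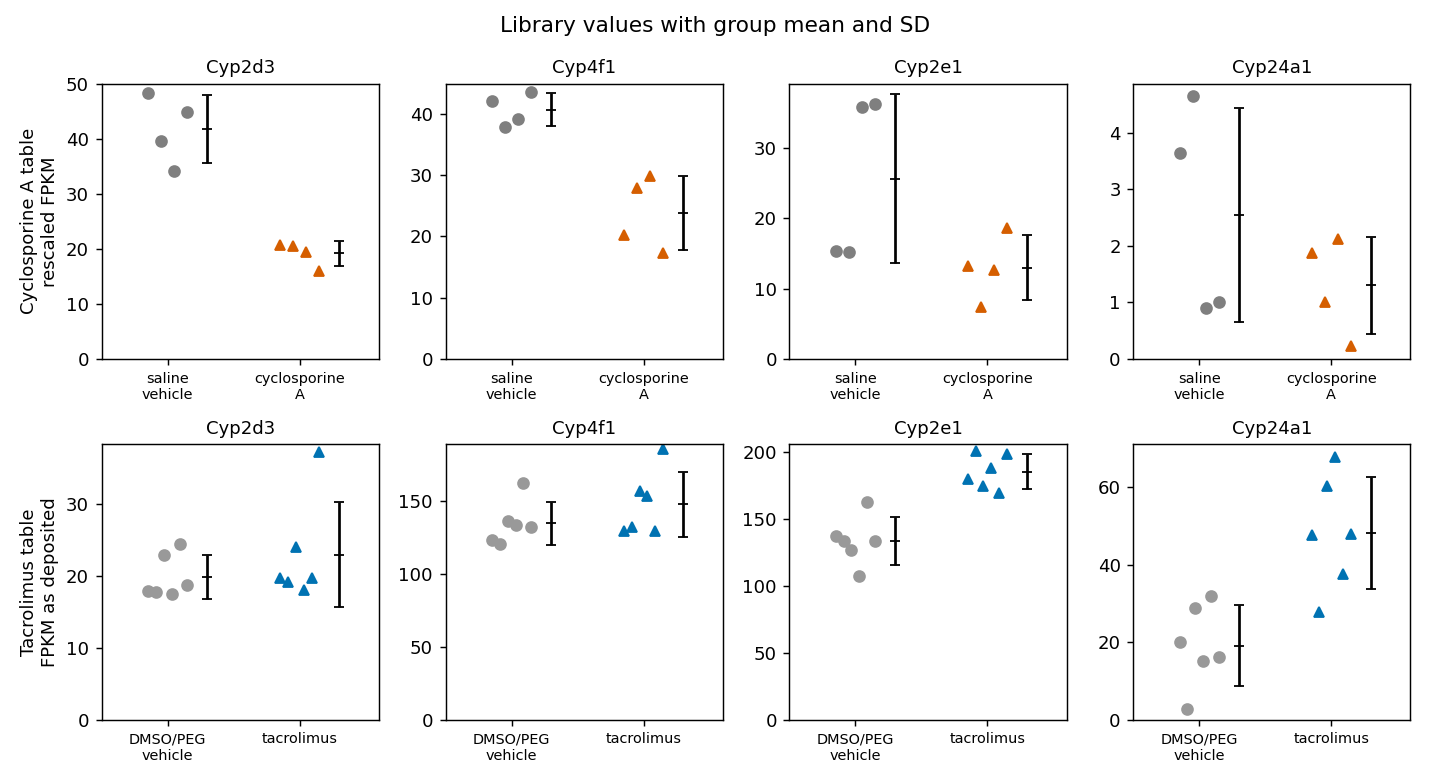
Values of Cyp2d3, Cyp4f1, Cyp2e1 and Cyp24a1 in each library (points), with group mean and SD (bars), in rescaled FPKM for the cyclosporine A table (top) and FPKM for the tacrolimus table (bottom). Cyp2d3 and Cyp4f1 do not overlap between saline and cyclosporine A, and Cyp2e1 does not overlap between DMSO/PEG vehicle and tacrolimus.

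The change with cyclosporine A was set against the change with tacrolimus, each within its table. The difference (cyclosporine A minus tacrolimus) passed the test for 2 of 28, both below 0, while 1.63% of 13392 genes passed and 0.769% passed below 0. For Cyp2d3 it was −1.25 on the log2 scale with a standard error of 0.20 (limma fits, adjusted p = 0.00447). In the tacrolimus table that gene was at 17.5 to 24.5 FPKM with vehicle and 18.0 to 37.2 with drug, overlapping, with a log2 fold change of 0.17 (SE 0.16). For Cyp4f1 the difference was −0.90 with a standard error of 0.19 (limma fits, adjusted p = 0.0296). That call was lost without each of saline replicates 1 to 4 (adjusted p = 0.102, 0.0679, 0.0739 and 0.0975) without cyclosporine A replicate 1 (0.0764) and without the filter on low values (0.0542).

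For Cyp24a1 the log2 fold changes of −0.54 and 1.50 gave a difference of −2.05 (SE 0.60, limma fits, adjusted p = 0.0799). For Cyp2e1, −0.88 and 0.48 gave −1.35 (SE 0.35, limma fits, adjusted p = 0.0853). At an unadjusted p under 0.05 there were 14 genes, 13 below 0 and Cyp2u1 above, against 8.62% of all genes below 0 and 7.36% above at that level. On FPKM as deposited 25 of 28 were called, all below 0, where 74.9% of all genes were.

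**Figure D3:**
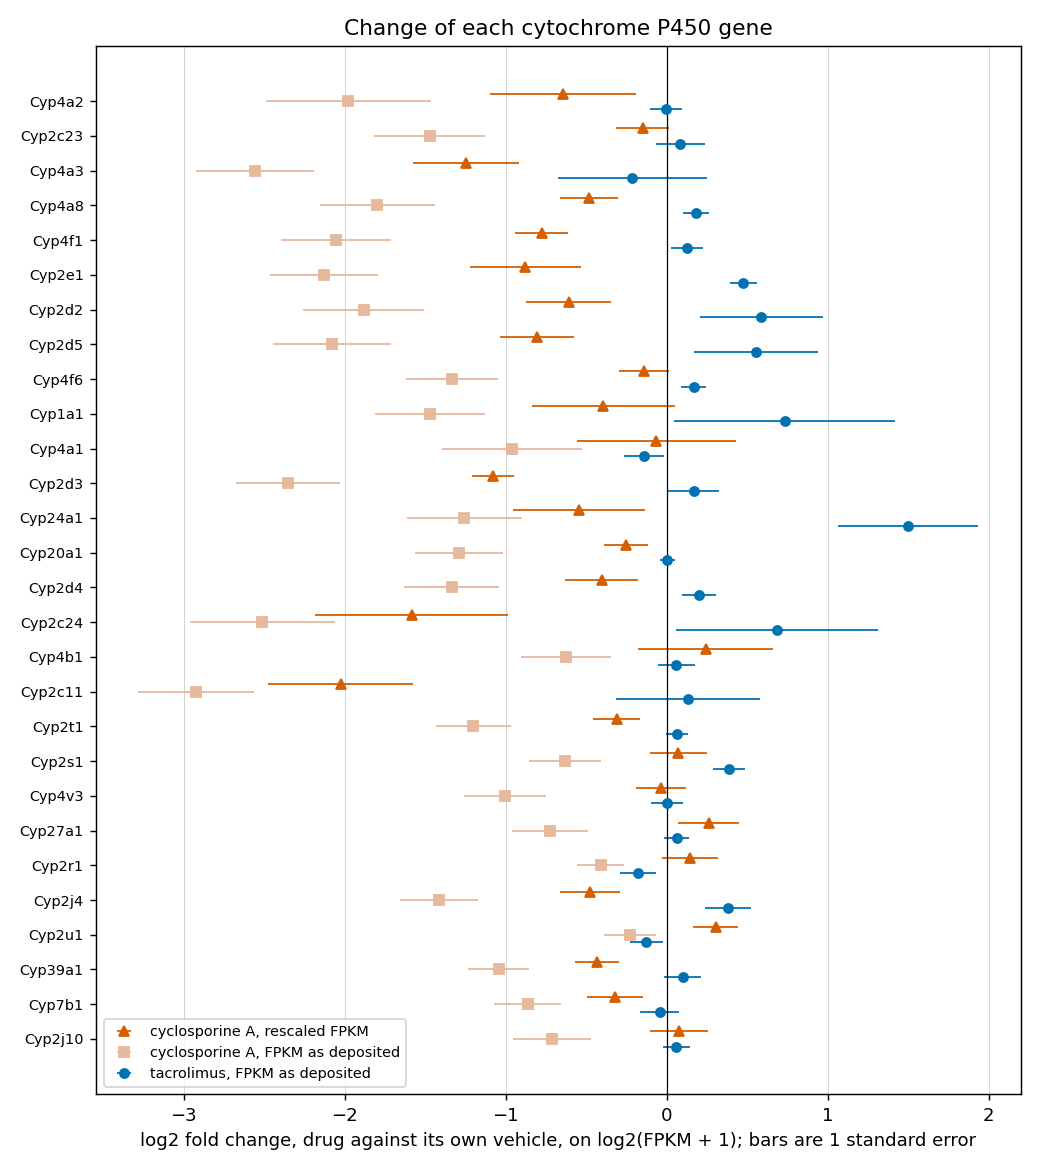
Log2 fold change of each gene with 1 standard error, for cyclosporine A on rescaled FPKM (orange triangles) and on FPKM as deposited (pale squares), and for tacrolimus (blue circles). All 28 pale squares lie below 0, 22 orange triangles do and 6 blue circles do.

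Several genes differed between libraries more than between groups. In the tacrolimus table Cyp4a3 (chromosome 5, 134469270 to 134484839, minus strand) took values in 2 separate ranges. It was at 138, 452, 449, 451, 158 and 489 FPKM in vehicle replicates 1 to 6 and at 155, 173, 511, 453, 530 and 120 in tacrolimus replicates 1 to 6. The gap from 173 to 449 was 2.59-fold, with 5 libraries under it and 7 above, and both groups had libraries on each side. The log2 fold change with tacrolimus was −0.21 (SE 0.46, limma, adjusted p = 0.947).

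Cyp4a2 did not share this split in the tacrolimus table, so its ratio to Cyp4a3 separated the same libraries there. How fragments shared by these close copies were assigned is not given in the sources used here. Cyp4a3 FPKM divided by Cyp4a2 FPKM was 0.0789, 0.352, 0.277, 0.307, 0.0845 and 0.314 with vehicle and 0.102, 0.110, 0.330, 0.314, 0.330 and 0.0677 with tacrolimus. In the cyclosporine A table the ratio was 0.0565, 0.0542, 0.232 and 0.229 with saline and 0.0568, 0.0445, 0.0420 and 0.278 with the drug. Saline replicates 3 and 4 and cyclosporine A replicate 4 were thus high and the other 5 libraries low. A ratio within a library does not depend on how libraries were scaled. In the cyclosporine A table Cyp4a2 also differed between saline libraries, at 1462, 1346, 682 and 880 rescaled FPKM in replicates 1 to 4. Cyclosporine A replicate 4 had the lowest Cyp4a2 of that table, 253. Its Cyp4a3 of 70.1 lay below every saline library, so its ratio was high and its Cyp4a3 was not. In Cyp4a3 itself only saline replicates 3 and 4 (158 and 202) lay above the largest gap.

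Saline replicates 3 and 4 and cyclosporine A replicate 4 were also the libraries with low Cyp4a1, another Cyp4a hydroxylase. It was at 6.40, 6.45, 1.33 and 1.55 rescaled FPKM with saline and at 4.18, 3.76, 5.27 and 0.775 with cyclosporine A. In the tacrolimus table Cyp4a1 had no such gap, running from 17.0 to 31.3 FPKM. In the cyclosporine A table the libraries with low Cyp4a1 also had the highest Cyp2e1 of their group. Over all tested genes cyclosporine A replicate 4 deviated from its group mean with saline replicates 3 and 4 (correlations 0.202 and 0.212). Against saline replicates 1 and 2 the correlations were −0.241 and −0.142. Fewer of these libraries are in the drug group than in the saline group, and their part in the cyclosporine A fits was not tested.

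On chromosome 7 a different set of libraries stood apart. In the tacrolimus table Cyp2d2 (123651827 to 123655896, minus strand) was at 40.9, 26.9, 91.0, 35.6, 129 and 94.4 FPKM with vehicle and at 47.8, 87.3, 106, 84.9, 84.9 and 165 with tacrolimus. Cyp2d5 (123616596 to 123621102, minus strand) was at 16.7, 19.1, 46.1, 17.8, 60.3 and 40.3 with vehicle and at 17.8, 47.4, 53.5, 40.1, 42.4 and 88.6 with the drug. Both were low in the same 4 libraries, vehicle replicates 1, 2 and 4 and tacrolimus replicate 1. Cyp2d3, which lies between them, had no such gap, at 17.5 to 19.8 FPKM in those 4 libraries and 18.0 to 37.2 in the other 8.

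Cyp2d5 divided by Cyp2d3 was 0.929, 1.08, 2.02, 1.02, 2.46 and 2.15 with vehicle and 0.903, 2.47, 2.23, 2.23, 2.15 and 2.38 with tacrolimus. Vehicle had 3 low libraries and tacrolimus 1, and the log2 fold changes of Cyp2d2 (0.59, SE 0.38, limma adjusted p = 0.743) and Cyp2d5 (0.55, SE 0.38, limma adjusted p = 0.763) did not pass the test. In the cyclosporine A table the ratio ran from 0.853 to 1.42 with no gap of that size. Cyp2d3 values there rest on 1616 bases and not the listed 3339, and those of Cyp4a2 and Cyp4a3 also on shorter lengths than listed, so the levels of either ratio cannot be set against those of the tacrolimus table. These sets of libraries do not match those of Cyp4a3: vehicle replicate 1 and tacrolimus replicate 1 were low in both, vehicle replicates 2 and 4 in Cyp2d5 alone.

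Cyp2c24 was nearly missing from single libraries. In vehicle replicate 4 of the tacrolimus table it had 1 fragment (0.0140 FPKM), while the other 11 libraries were at 7.82 to 26.2 FPKM, and in cyclosporine A replicate 4 it had 0. Its log2 fold change with tacrolimus of 0.68 (SE 0.63, limma adjusted p = 0.854) was 0.04 without that vehicle library. Over all alternative fits it ran from 0.04 to 2.08, the upper end above any fit of Cyp24a1 (up to 1.70). Cyp2c11, which lies near it on chromosome 1, was at 7.38 FPKM in the same vehicle library, inside the range of the others (2.95 to 23.5).

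**Figure D4:**
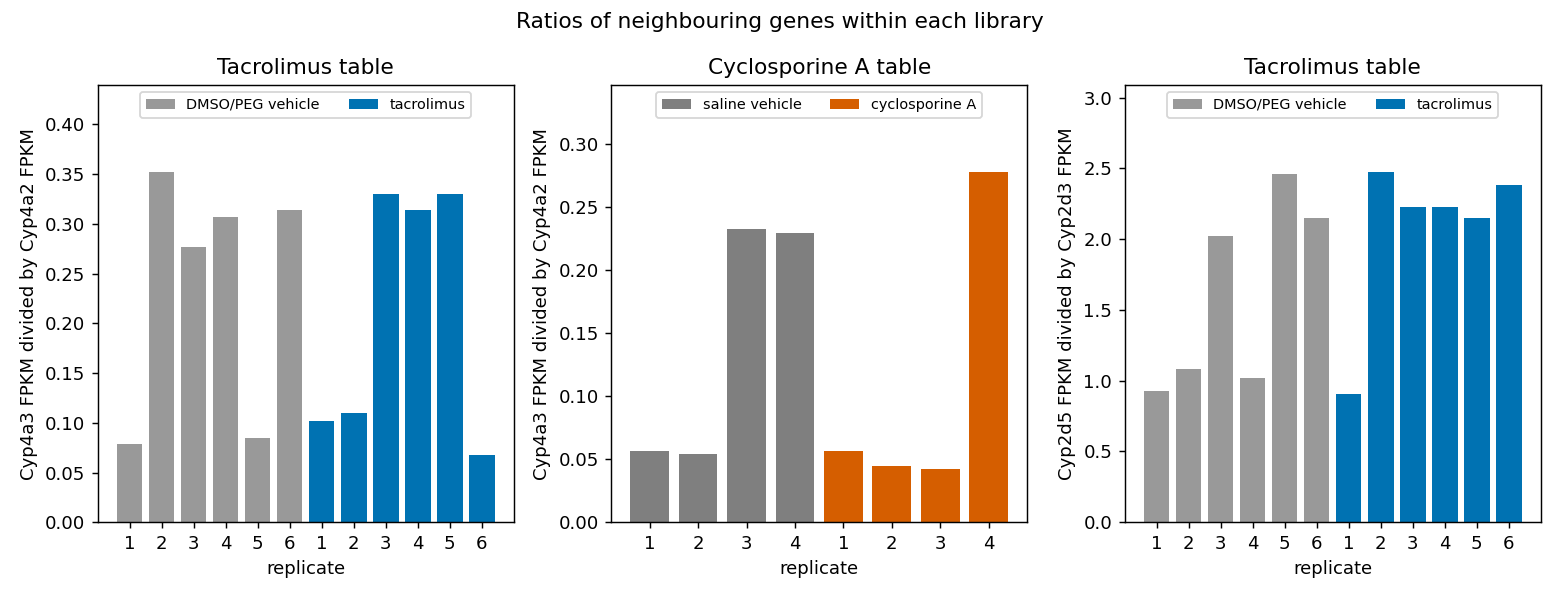
Ratio of FPKM of neighbouring genes in each library: Cyp4a3 to Cyp4a2 in the tacrolimus table (left) and cyclosporine A table (middle), and Cyp2d5 to Cyp2d3 in the tacrolimus table (right), grey for vehicle and coloured for drug. Each panel shows a low and a high set of libraries, both found in vehicle and drug.

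The genes that work with P450 enzymes were described from 6 lists. Of all genes limma called 0.609% with cyclosporine A, 0.303% with tacrolimus and 1.63% for the difference between the drugs, in either direction, and at an unadjusted p under 0.05 8.92% were lower with cyclosporine A, and 4.87% lower and 3.7% higher with tacrolimus. On FPKM as deposited limma called lower with cyclosporine A 9 of 9 redox partners, 13 of 14 heme genes, 20 of 21 transcription factors, 10 of 11 vitamin D genes, 5 of 10 other eicosanoid enzymes and 18 of 21 other oxidation and conjugation enzymes, against 80.9% of all genes. The counts that follow are on rescaled FPKM for cyclosporine A. Of 9 redox partners, which pass electrons to the heme, limma called 0 with cyclosporine A (4 at an unadjusted p under 0.05, 3 of them lower) and 0 with tacrolimus (1 at that level). The reductase Por had log2 fold changes of −0.52 and −0.18. Of 14 genes of heme synthesis and breakdown limma called 0 with either drug (5 and 0 at an unadjusted p under 0.05). The median log2 fold change with cyclosporine A was −0.28 over the redox partners and −0.13 over the heme genes.

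Of the transcription factors that control P450 genes, limma called 0 of 21 with cyclosporine A and 0 of 22 with tacrolimus (4 and 3 at an unadjusted p under 0.05, all lower). The oestrogen receptor gene Esr1 differed between the drugs (difference −0.79, limma fits, adjusted p = 0.0461), a call lost without each of 10 libraries in turn (saline replicates 1 to 4, cyclosporine A replicates 1 to 3, tacrolimus replicate 3 and DMSO/PEG vehicle replicates 2 and 4). In the vitamin D list 2 of 11 genes fell with cyclosporine A, the calcium-binding protein Calb1 (log2 fold change −1.85, limma adjusted p = 0.0251) and the vitamin D carrier Gc (−1.70, limma adjusted p = 0.0491), against 0.282% of all genes called lower. At an unadjusted limma p under 0.05, 5 of the 11 were lower and 1 higher with that drug, against 8.92% of all genes lower. The median log2 fold change was −0.58. With tacrolimus 2 of 12 fell, Calb1 (−3.81, limma adjusted p = 1.74e-11) and the calcium channel Trpv5 (−0.70, limma adjusted p = 0.00162). Calb1 is also 1 of the 3 distal convoluted tubule markers, all called lower with tacrolimus, and the part of these marker levels in the vitamin D list was not tested. The difference between the drugs (cyclosporine A minus tacrolimus) passed for 3 of 11: above 0 for Calb1 (1.96, limma adjusted p = 0.00876) and Trpv5 (1.09, limma adjusted p = 0.0123) and below 0 for the receptor gene Fgfr1 (−0.85, limma adjusted p = 0.0383). The Trpv5 difference lost its call without saline replicate 1 or 4, and that of Fgfr1 without saline replicates 1 to 4 or cyclosporine A replicates 1 or 3, each left out alone. The receptor Vdr had log2 fold changes of 0.07 and −0.37, the latter with a limma adjusted p of 0.0811. Both cyclosporine A calls depended on which libraries were included: 0 of the 2 were called without saline replicates 2, 3 or 4 or cyclosporine A replicates 1 or 3, and Calb1 alone without saline replicate 1.

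Among other eicosanoid enzymes Ptges, a prostaglandin E synthase, was 1 of 10 called with cyclosporine A (log2 fold change 0.87, limma adjusted p = 0.0489) and 0 of 10 were called with tacrolimus (0 at an unadjusted p under 0.05). With cyclosporine A 2 of the 10 were higher and 1 lower at an unadjusted limma p under 0.05, and the median log2 fold change was 0.10. The Ptges call was lost without any 1 of the 8 libraries. Of 21 other oxidation and conjugation enzymes Aldh1a1, which makes retinoic acid, was called with cyclosporine A (0.64, limma adjusted p = 0.0320), and of 23 none with tacrolimus (3 at an unadjusted p under 0.05). At an unadjusted limma p under 0.05 with cyclosporine A, 5 of the 21 were lower and 2 higher. Their median log2 fold change was −0.19, so Aldh1a1 went against most of its list. The Aldh1a1 call was lost without any of saline replicates 1 to 4 and without cyclosporine A replicates 1 or 3. For Aldh1a1 the difference between the drugs was 0.73 (limma adjusted p = 0.00830). On FPKM as deposited Ptges and Aldh1a1 had log2 fold changes of −0.31 and −0.67, and the Aldh1a1 difference was −0.58 (limma adjusted p = 0.0804).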

How the data were processed

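Per the labels' protocols, total RNA of entire kidneys was made into libraries with a NEBNext kit. The submitters' processing notes name HISAT2 and build rn6, while the counter, annotation and use of strand are not given in the sources used here. The authors deposited FPKM per gene in 2 tables, 1 per drug with its vehicle, and tables were tested separately. Fragments were recovered from FPKM and gene length: 74.2% of values in the cyclosporine A table were whole at the listed length, 4445 genes only at a shorter one, and 100% in the tacrolimus table. FPKM of the cyclosporine A table was rescaled with median-of-ratios factors. The tacrolimus table was used as deposited, since it already followed such factors.

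Genes were tested with limma 3.58.1 (R 4.3.3, empirical Bayes trend, two-sided) on log2(FPKM + 1), which understates changes of low genes, with Benjamini-Hochberg adjustment over all tested genes and a gene was called below an adjusted p of 0.05. Genes entered the test with 15 or more fragments in all and, in enough libraries to fill the smaller group, a level worth 10 fragments in a library of median size. The difference between drugs used both standard errors with Satterthwaite degrees of freedom. Promoters were aligned with Biopython 1.88. The fits were also run on simulated fragments with the same dispersion for every gene and no outlying library. That setting is simpler than these data, so its outcome is not used as support here. The members, the lists and the tests were chosen with earlier results of these data known. All members may be named: called genes, the subfamilies Cyp2c, Cyp2d, Cyp2e, Cyp2j, Cyp4a and Cyp4f and the vitamin D genes with library values or ranges, the other members by range. Other genes are named only from the pathway and marker lists. The library values of Cyp1a1 and the list genes named without a call were chosen after their values were seen. Alternatives were deposited FPKM, scaling to nuclear fragments, a pseudocount of 0.1, no filter, voom weights on recovered fragments, robust empirical Bayes, a replicate block and leaving out each library.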

Additional observations from a re-analysis of the deposited data

Results flagged for a closer look

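Among 112 groups of libraries tested (28 genes in 4 groups), 5 held a library far from the others, where chance flags about 1 in 20. With saline, Cyp1a1 was at 17.8 rescaled FPKM in replicate 2, the next library being at 4.04. With cyclosporine A, Cyp7b1 was at 0.852 rescaled FPKM in replicate 2, the next being at 0.471. With the DMSO/PEG vehicle, Cyp27a1 was at 7.79 FPKM in replicate 2, the next being at 6.56. Tacrolimus replicate 6 had 2 such values, Cyp2d3 at 37.2 FPKM (next 24.0) and Cyp2j4 at 10.4 FPKM (next 6.34).

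For 2 genes the difference between the 2 drugs' effects (cyclosporine A minus tacrolimus) passed its own test, at −1.25 on the log2 scale for Cyp2d3 and −0.90 for Cyp4f1. Drug, vehicle and table cannot be told apart in these values.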

How the results depend on the processing

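Of the 28 genes, 1 was called with cyclosporine A. On FPKM as deposited 26 were called, with voom on recovered fragments 3, without the filter on low values 0, and 0 to 2 when single libraries were left out (0 without saline replicate 4, 2 without cyclosporine A replicate 4). With tacrolimus 1 was called, without the filter 0, and 0 to 1 when single libraries were left out. For the difference 2 were called, on deposited FPKM 25, with voom 4, without the filter 1, and 1 to 4 with single libraries left out (4 without tacrolimus replicate 1). The fit with the replicate number as a replicate block called 0 with cyclosporine A (Cyp2d3 at an adjusted p of 0.0618), 0 with tacrolimus (Cyp2e1 at 0.151) and 5 for the difference (Cyp2d3, Cyp2c11, Cyp2e1, Cyp24a1 and Cyp2d5, with Cyp4f1 lost at 0.0520). Same-numbered libraries did not deviate together (correlations of −0.149 to 0.212 and −0.151 to 0.182, with 1 of 4 and 2 of 6 libraries closest to their own number), so the numbers do not pair them.

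On deposited FPKM the direction turned for cyclosporine A in Cyp27a1 (−0.73), Cyp2u1 (−0.23), Cyp2r1 (−0.41), Cyp2s1 (−0.63), Cyp4b1 (−0.63), Cyp2j10 (−0.71), Ptges (−0.31) and Aldh1a1 (−0.67), and for the difference in Cyp2u1 (−0.10), Cyp2r1 (−0.23), Cyp27a1 (−0.79), Cyp4b1 (−0.69), Cyp2j10 (−0.77), Cyp4a1 (−0.82) and Aldh1a1 (−0.58), where nearly all genes are lower because mitochondrial fragments enter the total. With voom Cyp2c11 under tacrolimus turned to −0.043. With single libraries left out, it ran from −0.10 to 0.42 under tacrolimus (below 0 without tacrolimus replicates 5 and 6 and vehicle replicates 1 and 3), Cyp2c23 from −0.016 to 0.16 (below 0 without vehicle replicate 2), Cyp4a3 from −0.45 to 0.018 (above 0 without tacrolimus replicate 6), and Cyp1a1 under cyclosporine A from −0.62 to 0.12 (above 0 without saline replicate 2). The cause was not tested for any of these except as stated. Nuclear fragments numbered 2905876 to 6549317 per cyclosporine A library and 10283990 to 17256836 per saline library, which limits low genes most under the drug.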
